A study of Xenopus laevis with 14 samples.

Results

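The potassium channel genes are the lines of the deposited expression table whose gene symbol begins with kcn in any case, 88 of 19921 genes. They carry 85 distinct symbols, because 3 symbols each stand on a pair of lines. Those of kcnj9 and kcnt1 are told apart below by their Ensembl identifiers. Of the 88 members, 61 had a mean of at least 10 normalized reads over the 10 RNA libraries and were tested, and the other 27 lay below that filter. The tissue was the animal cap of Xenopus laevis, ectoderm cut from the embryo at about stage 10 after injection of RNA at the 2-cell stage, and each group had 2 libraries. Wild-type caps had no treatment. All 4 other groups carried noggin RNA and were given retinoic acid (RA), and 3 of these also carried RNA for a construct: prdm12 itself, a fusion of it with the activator VP16, or a fusion with the engrailed repressor (engR). Noggin blocks BMP signals and turns ectoderm neural, RA makes neural tissue posterior, and Prdm12 is a zinc-finger factor of the spinal cord domain that makes inhibitory V1 interneurons.

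The labels limit these groups as models in several ways. A cap is a mixed piece of tissue, the injected RNA is not confined to 1 cell type, and the labels give neither doses nor the length of culture. The labels of engR replicate 1 conflict: it is named engR in its title and VP16 in its treatment, so the counts of members called with it are also given without it. The columns of wild-type caps carry a code and were matched by exclusion, since every other column names a construct. Values are normalized read counts per gene, as deposited, and are not divided by gene length, so levels are compared between groups and not between genes. The gene models are those of Xenopus tropicalis, with no separate lines for the homeologous copies of a Xenopus laevis gene. How reads of the copies were assigned is not given. Libraries held between 11986697 and 15893668 reads on genes. Reads without a unique alignment were counted apart. They came to 44.04% and 34.3% of all values in wild-type replicates 1 and 2, and 34.1% and 34.2% with engR. In the other libraries they came to between 23.8% and 27.9%. Their part in the differences below was not tested. Nothing in the labels says that the replicates came from separate embryos or batches, so p-values measure the spread between these libraries only. In these bulk samples, fewer cells of a type and less RNA per cell cannot be told apart.

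Potassium channels let potassium leave or enter the cell along its gradient and so set the resting potential and end the action potential. Voltage-gated (Kv) subunits open on depolarization, KCNQ and KCNH channels are slower relatives that hold neurons near rest, and silent Kv subunits form no channel on their own but change the Kv channels they join. Inward rectifiers (kcnj) and K2P leak channels (kcnk) act near the resting potential, and calcium- or sodium-activated channels (kcnma, kcnn, kcnt) couple the current to ions that entered before. Auxiliary subunits (kcnab, kcne, kcnip, kcnmb) tune the gating and traffic of the pore subunits. Neurons express many of these families as they mature, while epithelia such as epidermis use a smaller set for ion transport.

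The summed level of the 88 members was 3855 and 4479.7 normalized reads in wild-type caps, 6742 and 10459.6 with noggin and RA, 10848 and 16609 with prdm12, 14878 and 19826 with engR and 3672 and 6254 with VP16. The engR libraries were the highest for their replicate number, and each VP16 library lay below each engR and prdm12 library. Between 64 and 70 members had a read in the wild-type libraries, against 76 to 84 in the libraries with noggin and RA apart from VP16, which had 73 and 77. Of the 61 tested members, 39 had a mean under 10 in wild-type caps, 11 with VP16, and 4 or 5 in each of the other groups. Many members therefore passed the filter only through the neuralized groups, and their counts against wild-type caps are descriptions of the members that passed. In the same way kcna4 and kcnrg passed only through the wild-type libraries, and kcnf1 only through the libraries with noggin and RA alone. Counts that include these genes are descriptions too.

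**Figure D1:**
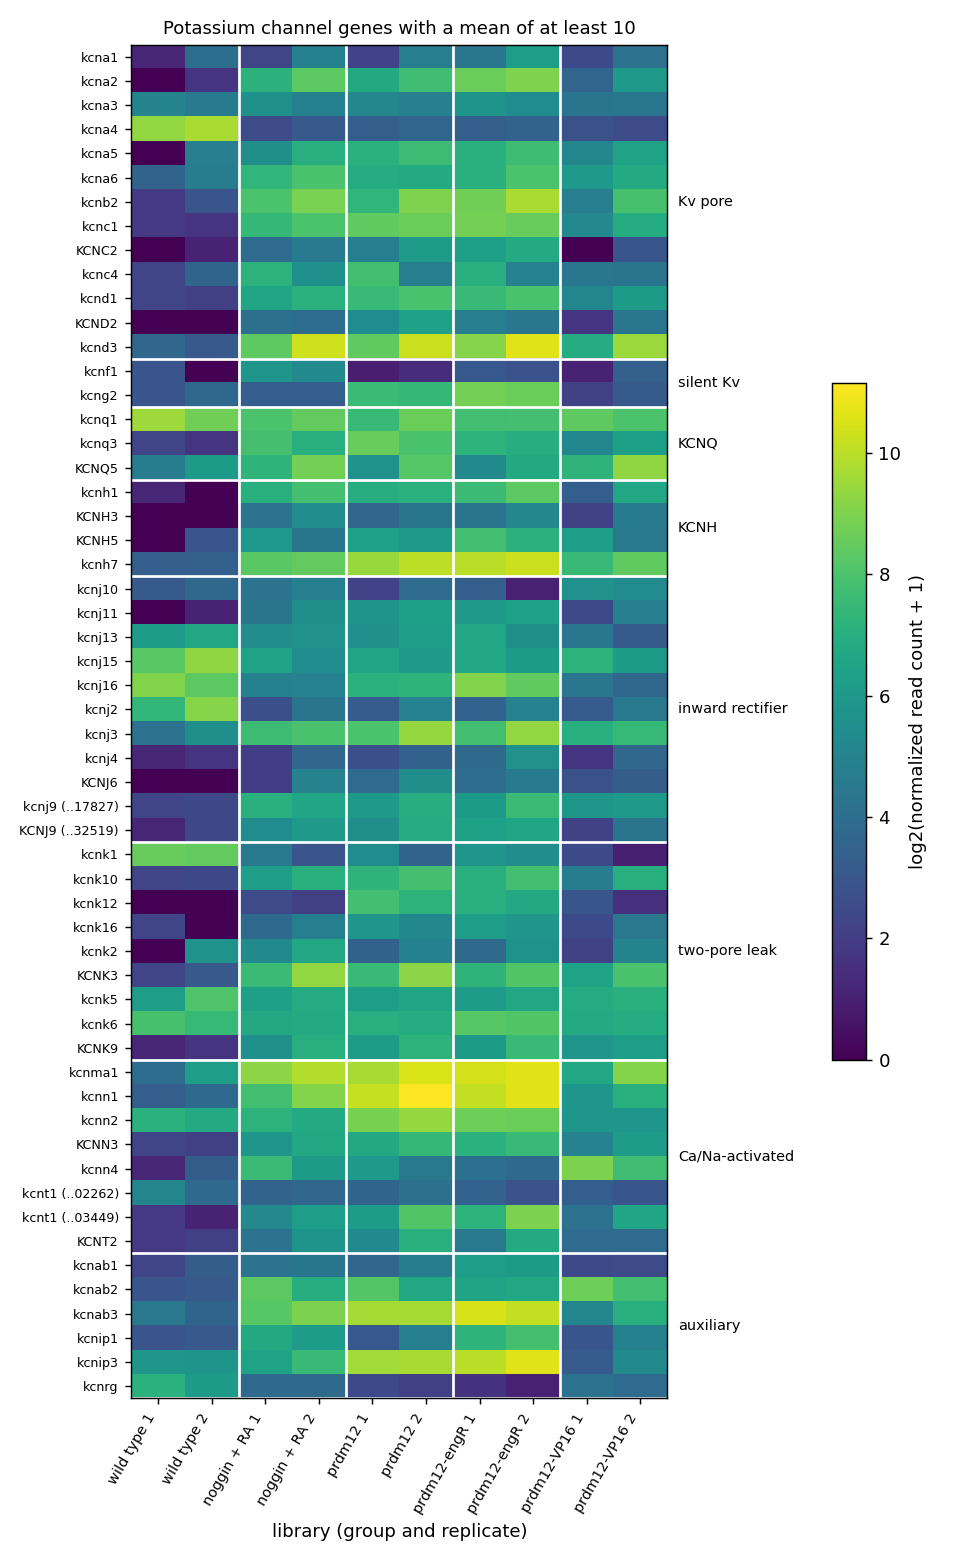
Levels of 56 of the 61 tested potassium channel genes, as log2(normalized read count + 1), with genes in rows by family and the 10 libraries in columns. Symbols that stand on a pair of lines end with the last digits of their Ensembl identifier. Most rows are dark in the 2 wild-type libraries and brighter in the libraries with noggin and RA, and kcna4, kcnj2, kcnk1 and kcnrg run the other way.

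The first comparison asks what neuralization with noggin and RA did to the ectoderm. Of the 61 tested members, 40 rose, 7 fell and 14 did not pass the test (limma, adjusted p under 0.05). Of all 12937 genes tested, 43.7% were called, 22.3% higher and 21.4% lower. The median log2 fold change of the 61 members was 3.69, against 0.02 over all genes tested, and was 3.51 with the 4 members that had no wild-type read set at the fold that a floor of 3 reads over the group allows. The same change of tissue took the summed level of 12 neuronal marker genes from 3896 and 2977 to 82637 and 119829 normalized reads, and that of 12 epidermal marker lines from 912557 and 802693 to 5169 and 3978. All 12 neuronal markers rose and all 12 epidermal lines fell, and no marker of either list was without a read in either group. Muscle markers summed to 349 and 585 in wild-type caps and 3359 and 2130 with noggin and RA. Of the 4 tested muscle markers, 2 rose and 1 fell. The part of these cell types in the channel levels was not tested.

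Kv pore subunits made up 18 members, of which 16 were tested, 13 rose and 1 fell. The axonal delayed rectifier gene kcna2 had 0 and 2.19 normalized reads in wild-type caps against 142 and 321 after noggin and RA. This rested on 2 wild-type reads and gave a ratio of 192 (95% counting interval 53.01 to 1593). The gene kcnc1, known from fast-spiking neurons, had 2.65 and 2.19 (wild type) and 171 and 251 (noggin and RA, log2 fold change 5.93 ± 0.52, adjusted p = 6.2e-05, limma). In kcna2 and kcnc1 both neuralized libraries stood far above both wild-type ones. The delayed rectifier gene kcnb2 rose from 4.61 ± 2.77 to 366 ± 162 (mean ± SD, n = 2 libraries, as below). The A-type channel gene kcnd3, whose current delays firing, rose from 9.79 ± 3.01 to 822 ± 698 (log2 fold change 5.96 ± 1.03, adjusted p = 0.00191). Its neuralized replicates were wide apart, at 328 and 1316. The exception was kcna4, an A-type member of the same subfamily as kcna2. It fell from 647 and 845 to 4.88 and 7.53, the largest drop of any tested member (log2 fold change -6.71 ± 0.43, adjusted p = 1.6e-05). As kcna4 passed the filter only through the wild-type libraries, this drop is a description. Levels of kcna1 and kcna3 overlapped between the groups and did not pass (adjusted p = 0.587 and 0.45).

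All 4 tested KCNH genes rose. The ether-a-go-go gene kcnh1 had 1.32 and 0 normalized reads in wild-type caps and 132 and 228 with noggin and RA, a ratio of 299 (95% counting interval 53.3 to 11827) over 1 wild-type read. The ERG family gene kcnh7 was even between replicates, from 9.26 and 9.85 to 309.8 and 351 (log2 fold change 4.97 ± 0.36, adjusted p = 2.5e-05). Of the 5 KCNQ genes 3 rose, among them kcnq3, a subunit of the M-current channels that hold back repetitive firing in neurons. Levels of kcnq3 rose from 3.97 and 2.19 to 228 and 129. The epithelial and cardiac gene kcnq1 had 734 and 421 (wild type) and 256 and 354 (noggin and RA), lower in both neuralized libraries without passing the test (adjusted p = 0.132). Of the silent Kv genes, kcnf1 rose to 54.5 and 37.6, from 6.62 and 0, and kcng2 had 6.62 and 12.04 (wild type) and 8.94 and 9.2 (noggin and RA, adjusted p = 0.984). KCNQ5 did not pass, at 25.1 and 65.7 (wild type) and 152 and 456 (noggin and RA, adjusted p = 0.0722), and passed with the replicate number as a block (adjusted p = 0.000247).

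Inward rectifiers split, with 5 of 11 tested members up and 3 down. Those that rose included subunits of G-protein-gated channels that quiet neurons, such as kcnj3, from 17.2 and 45.96 to 197 and 245 (log2 fold change 2.92 ± 0.69, adjusted p = 0.00901). Without wild-type replicate 1 its call was lost (adjusted p = 0.0704). Those that fell were kcnj2, kcnj15 and kcnj16. The strong rectifier gene kcnj2 fell from 164 and 549 to 5.69 and 18.4. The epithelial gene kcnj16, whose product works together with other rectifier subunits, fell from 525 and 324 to 29.3 and 30.1 (log2 fold change -3.75 ± 0.39, adjusted p = 0.00013). Its relative kcnj15 fell from 311 and 626 to 87.8 and 40.99. None of the 3 overlapped between groups, but the share of all genes without overlap is not given here. In the deposited table kcnj16 and kcnj2 are neighbours on scaffold GL172812.1, at positions 234247 to 259207 and 311327 to 312604, with no gene between them.

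Of the 9 tested K2P leak channel genes, 5 rose and 2 fell. The acid-sensitive leak channel genes KCNK3 and KCNK9 rose, KCNK3 from 3.97 and 7.66 to 191 and 648 and KCNK9 from 1.32 and 2.19 to 47.2 and 128. For KCNK9 the wild-type caps held 3 reads, and the ratio was 48.4 (95% counting interval 16.3 to 237). The weak leak channel gene kcnk1 fell from 371 and 352 to 23.6 and 6.69 (log2 fold change -4.72 ± 0.82, adjusted p = 0.00198). Its close relative kcnk6 fell by less, from 206 ± 41.2 to 108 ± 3.92 (log2 fold change -0.92 ± 0.27, adjusted p = 0.0263), and lost the call without wild-type replicate 1 or either noggin library (adjusted p = 0.1196, 0.1143 and 0.0982). The THIK family gene kcnk12 had no read in wild-type caps and 4.88 and 3.35 normalized reads with noggin and RA, at least 2.29-fold higher against a floor of 3 reads over the group. It passed (adjusted p = 0.0121) but not without noggin replicate 1 (adjusted p = 0.0689), with a pseudocount of 4 (adjusted p = 0.0869) or with quantile normalization (adjusted p = 0.054).

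All 8 calcium- and sodium-activated channel lines were tested, and 6 rose. The large-conductance gene kcnma1 rose from 14.6 and 73.3 to 585 and 945, a log2 fold change of 4.45 ± 0.89 (adjusted p = 0.00401). The intermediate-conductance gene kcnn4, known from blood cells and epithelia, rose from 1.32 and 8.75 to 195 and 66.9 (log2 fold change 4.60 ± 0.87, adjusted p = 0.00306). Both neuralized libraries of kcnn4 lay above both wild-type ones, although they differed from each other. The small-conductance gene kcnn2, which shapes the pause after an action potential, was already present in wild-type caps at 136 and 113 and stood at 146 and 112 (adjusted p = 0.914). Of the kcnt1 lines, ENSXETG00000003449 rose from 2.65 and 1.09 to 36.6 and 73.6. The other, ENSXETG00000002262, had 33.1 and 13.1 (wild type) and 10.6 and 11.7 (noggin and RA, adjusted p = 0.275). Among 6 tested auxiliary genes 3 rose, including the Kv beta gene kcnab3 from 21.2 and 10.9 to 308 and 489, a log2 fold change of 4.58 ± 0.59 (adjusted p = 0.000425). The regulator kcnrg, which in human cells hinders the assembly of Kv channels, fell from 140.3 and 66.8 to 13.01 and 13.4. This gene too passed the filter only through the wild-type libraries, so its fall is a description.

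Of these 47 called members, 34 also passed in each of the 10 fits that left out 1 library, and the count ranged from 38 to 47. How many of all genes were called in those fits was not counted. DESeq2 called 48 members, where it called 48.2% of all genes. Those that failed at least 1 such fit, or for kcnf1 dropped below the filter in 2, included kcnj3, kcnk6 and kcnk12, already given, and kcna5, KCNC2, kcnc4, kcnf1, KCNH5, KCNJ6, kcnk16, KCNT2 and the kcnt1 line ENSXETG00000003449. With kcnk12, KCND2, KCNJ6 and KCNH3 are the tested members that had no wild-type read.

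**Figure D2:**
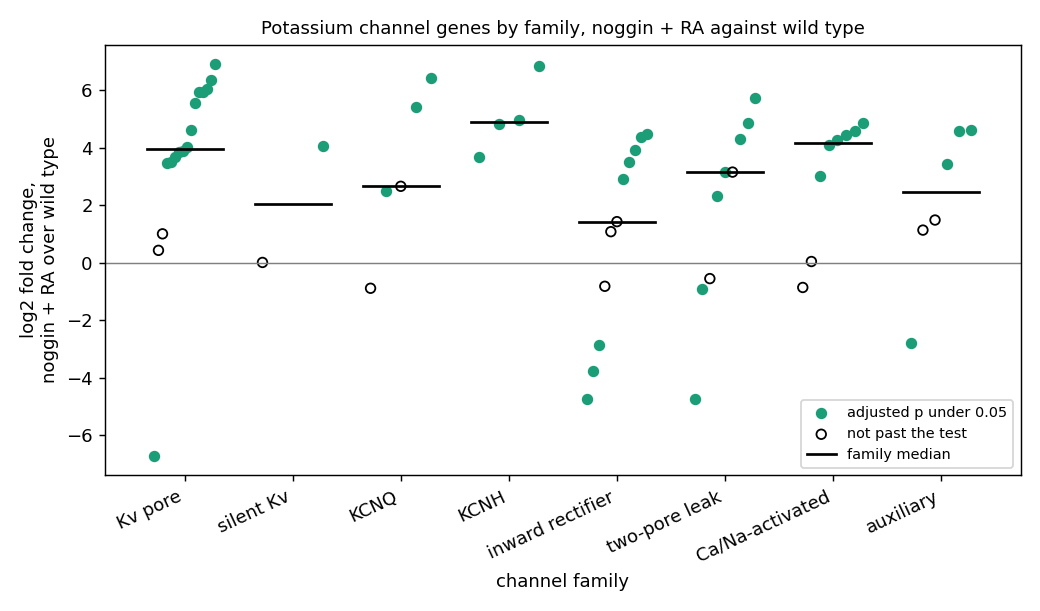
Log2 fold change of noggin with RA over wild type for each tested potassium channel gene, by family. Filled points passed limma at an adjusted p under 0.05, open points did not, and bars are family medians. All 4 KCNH genes lie above 0, and the Kv pore, inward rectifier, K2P and auxiliary families hold called members on both sides of 0.

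Adding prdm12 to noggin and RA asks what the factor itself does in posterior neural tissue. Of the 61 tested members, 2 rose and none fell, kcnk12 and kcng2, whereas 0.162% of all genes tested were called, 0.147% higher and 0.0155% lower. The leak channel gene kcnk12 (ENSXETG00000022624, positions 2109028 to 2152717 of scaffold GL172783.1 in the deposited table) stood at 4.88 and 3.35 with noggin and RA and at 225 and 145 with prdm12 (log2 fold change 5.17 ± 0.59, adjusted p = 0.0197, limma). The silent Kv gene kcng2, which modifies delayed rectifiers of the kcnb type (ENSXETG00000000858, positions 873631 to 874377 of scaffold GL172849.1), stood at 8.94 and 9.2 (noggin and RA) and 193 and 173 (prdm12, log2 fold change 4.19 ± 0.48, adjusted p = 0.0197). Within each replicate number the log2 difference was 5.27 and 5.07 for kcnk12 and 4.29 and 4.09 for kcng2. Both genes passed the filter only through the prdm12 and engR libraries. Their means in wild-type caps, with noggin and RA and with VP16 were 0, 4.1 and 4.4 for kcnk12. For kcng2 these means were 9.33, 9.07 and 5.65. Counts that include kcnk12 and kcng2, here and in the comparisons below, are therefore descriptions of the members that passed. Both genes lost their call without either noggin, prdm12 or engR library, with adjusted p between 0.0794 and 0.2026. Without either wild-type library kcnk12 missed the threshold (adjusted p = 0.054 and 0.0534) and kcng2 passed.

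With the replicate number as a block 5 members rose and none fell, against 0.935% of all genes called, 0.788% higher, the other 3 being kcnj16, kcnn1 and kcnn2. The small-conductance gene kcnn1 had 221 and 541 with noggin and RA and 1138 and 2271 with prdm12 (adjusted p = 0.334 without the block and 0.0173 with it). Levels of kcnn2 were 146 and 112 (noggin and RA) and 459 and 675 (prdm12, adjusted p = 0.0539, and 0.0206 with the block). Those of kcnj16 were 29.3 and 30.1 (noggin and RA) and 137 and 152 (prdm12, adjusted p = 0.0949, and 0.0262 with the block). All 3 genes were without overlap between the groups, but the share of all genes without overlap is not given here. They were singled out after their values had been seen. The calcium sensor gene kcnip3, an A-type auxiliary subunit that is also a DNA-binding protein, had 86.2 and 183 (noggin and RA) and 771 and 821 (prdm12, adjusted p = 0.297, and 0.0649 with the block). In the other direction the silent Kv gene kcnf1 had 54.5 and 37.6 (noggin and RA) and 0.92 and 1.65 (prdm12), 3 prdm12 reads against 112, and passed in DESeq2 but not in limma (adjusted p = 0.0257 and 0.282). As kcnf1 passed the filter only through these noggin libraries, its difference is a description. DESeq2 called 7 members higher and 1 lower, where it called 1.93% of all genes. Likewise kcnn4 had 195 and 66.9 (noggin and RA) and 62.8 and 21.5 (prdm12, adjusted p = 0.969), lower in each prdm12 library than in each noggin library. Over the 61 members the median log2 fold change was 0.52, against 0.03 over all genes, with 38 above 0 and 23 below.

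Other members with many reads did not pass in limma. The kcnd3 libraries read 328 and 1316 (noggin and RA) and 348 and 1237 (prdm12), and those of KCNK3 191 and 648 (noggin and RA) and 181 and 589 (prdm12), each with replicate 2 higher in both groups. For kcnma1 they read 585 and 945 (noggin and RA) and 835 and 1450.4 (prdm12), for kcnh7 309.8 and 351 (noggin and RA) and 691 and 1051 (prdm12), and for kcnj3 197 and 245 (noggin and RA) and 253 and 675 (prdm12, adjusted p = 1, 0.334 and 1). Of these kcnh7 passed in DESeq2 (adjusted p = 0.0313). The auxiliary gene kcnab3 had 308 and 489 (noggin and RA) and 804 and 808 (prdm12, adjusted p = 0.999). The summed level of the 12 neuronal markers was 82637 and 119829 with noggin and RA and 146604 and 183088 with prdm12, and none of them passed the test. Among them neurod4 and elavl3 had lower means with prdm12.

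**Figure D3:**
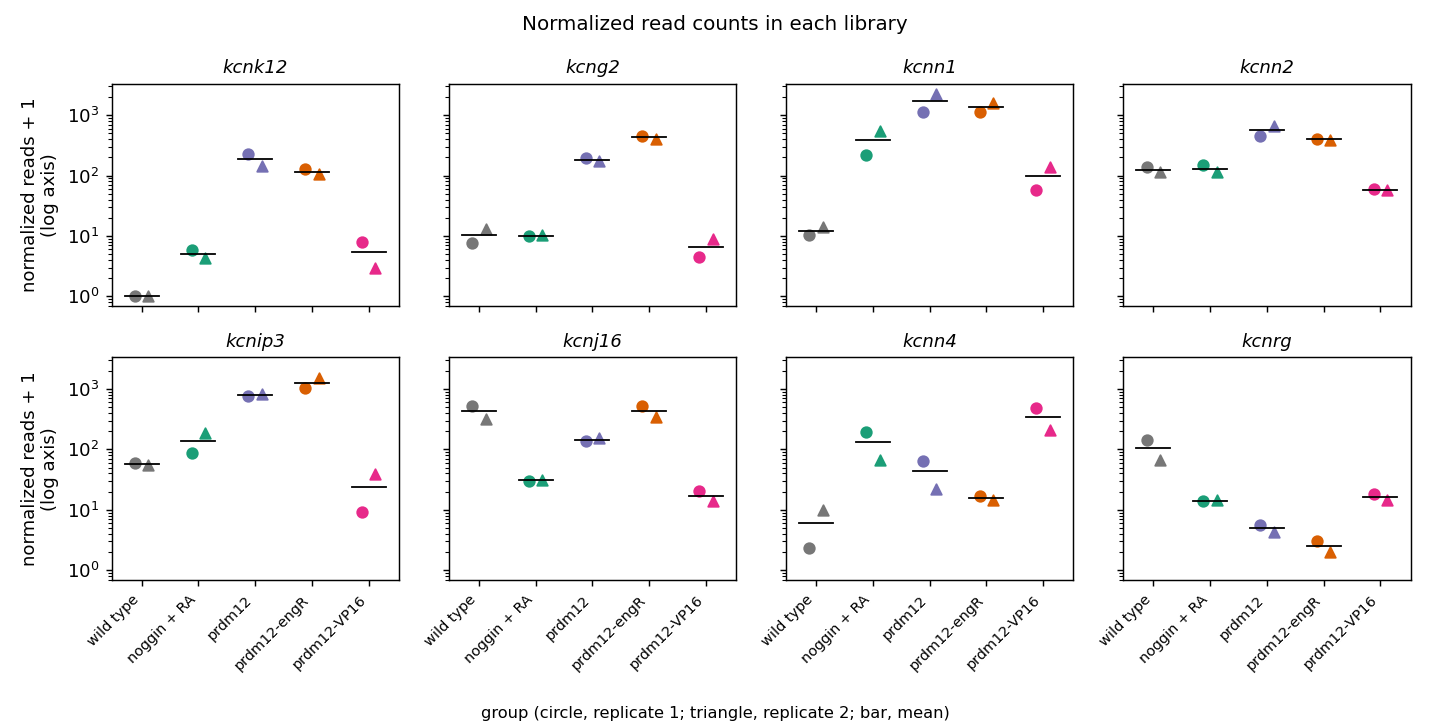
Normalized read counts plus 1 of 8 potassium channel genes in each library on a log axis, circles for replicate 1, triangles for replicate 2 and bars for group means. The genes kcnk12, kcng2, kcnn1, kcnn2, kcnip3 and kcnj16 are higher in the prdm12 and engR libraries than in the noggin and VP16 libraries, while kcnn4 and kcnrg are lower.

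The comparisons of prdm12, engR and VP16 with noggin and RA share the same noggin libraries, so their values stand side by side and are not independent. With the engR fusion 7 members rose and 1 fell, where 3.43% of all genes tested were called, 2.41% higher and 1.02% lower. Levels of kcng2 went from 8.94 and 9.2 with noggin and RA to 457 and 405 with engR (log2 fold change 5.42 ± 0.48, adjusted p = 0.00368). For kcnk12 they went from 4.88 and 3.35 to 126 and 104, a log2 fold change of 4.51 ± 0.59 (adjusted p = 0.0111). The inward rectifier kcnj16 rose from 29.3 and 30.1 to 518 and 340.03 (log2 fold change 3.78 ± 0.39, adjusted p = 0.00521), next to 525 and 324 in wild-type caps. Its neighbour kcnj2 had 5.69 and 18.4 with noggin and RA and 10.4 and 29.9 with engR (adjusted p = 0.819). The calcium sensor kcnip3 rose from 86.2 and 183 to 1026 and 1537 (adjusted p = 0.0362), and the small-conductance gene kcnn2 from 146 and 112 to 411 and 395 (adjusted p = 0.0277). The ERG gene kcnh7 rose from 331 ± 29.4 to 1109 ± 139 (log2 fold change 1.74 ± 0.36, adjusted p = 0.0414) and the leak channel kcnk6 from 108 ± 3.92 to 293 ± 22.3, a log2 fold change of 1.43 ± 0.27 (adjusted p = 0.0333). The regulator kcnrg fell from 13.01 and 13.4 to 2.09 and 1.03, 32 reads against 3, a ratio of 0.118 (95% counting interval 0.0231 to 0.377). Its call was close to the threshold (adjusted p = 0.0489) and held in 6 of 18 alternatives. It was lost with edgeR (adjusted p = 0.0547) and in 9 of the 10 fits that left out 1 library, with adjusted p up to 0.288. None of these 8 genes overlapped between the groups. As the share of all genes without overlap is not given here, this does not set them apart.

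With the replicate number as a block 12 members rose and 2 fell, against 10.9% of all genes called, 7.21% higher and 3.72% lower. Among the members added were kcnn1 and kcnab1 on the upper side and KCNQ5 on the lower side, and they were named after their values had been seen. Levels of kcnn1 were 221 and 541 (noggin and RA) and 1114 and 1599 (engR, adjusted p = 0.133, and 0.00562 with the block). KCNQ5 had 152 and 456 (noggin and RA) and 39.6 and 109 (engR), lower in engR within each replicate number (log2 difference -1.91 and -2.05, adjusted p = 0.449, and 0.0104 with the block). The intermediate-conductance gene kcnn4 had 15.6 and 13.4 against 195 and 66.9 and passed neither in limma nor with the block (adjusted p = 0.133 and 0.0668), but did in DESeq2 (adjusted p = 0.004). DESeq2 called 12 members higher and 2 lower, where it called 9.04% of all genes. Values of kcnd3, kcnma1, kcnj3 and KCNK3 did not pass (adjusted p = 0.898, 0.711, 0.719 and 0.759), nor did those of kcnab3, at 308 and 489 (noggin and RA) and 1426 and 1116 (engR, adjusted p = 0.197, and 0.0468 in DESeq2). Over the 61 members the median log2 fold change was 0.80, against 0.03 over all genes, with 45 above 0.

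The engR count rested on every library of both groups. The share of all genes called was not counted in the engR fits that left out 1 library, so these counts do not set the members apart from other genes. Without engR replicate 1, whose labels disagree, or without engR replicate 2, no member passed, with kcng2 at an adjusted p of 0.0545 and 0.0582. Without engR replicate 1 the 8 members called with it kept their direction, with log2 fold changes between -2.81 and 5.33 and adjusted p up to 0.184. The calls of kcnh7 and kcnip3 held in 2 of the 10 fits that left out 1 library. Without noggin replicate 1 or 2 the count was 2 each time. Without prdm12 replicate 1 or 2 it was 4 each, and without wild-type replicate 1 it was 5. In the library with conflicting labels kcng2 had 456.8 normalized reads and kcnn4 15.6, against 404.9 and 13.4 in engR replicate 2. The VP16 libraries had 3.45 and 7.85 for kcng2 and 488 and 212 for kcnn4. The epidermal marker lines summed to 5169 and 3978 with noggin and RA and 14057 and 12544 with engR, where 2 of 12 rose. Both that rose are lines of the symbol krt12. The multiciliated cell markers summed to 7864 and 7069 (noggin and RA) and 2409 and 2319 (engR), and 4 of 7 tested fell. In that list myb went the other way without passing, at 6.17 ± 1.63 (noggin and RA) and 17.1 ± 0.59 (engR, limma adjusted p = 0.442). Of 7 neural progenitor markers 3 fell, and none of the 12 neuronal markers passed. Among 4 tested muscle markers 1 fell and 0 rose. The part of these markers in the channel levels was not tested.

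With the VP16 fusion no member passed against noggin and RA and 0% of all genes did (limma), although 17 members and 868 genes had an unadjusted p under 0.05. The median log2 fold change of the members was -0.88, against 0.00 over all genes, and 51 of 61 were below 0. For 32 of 61 members each VP16 library lay below each noggin library, where 15.9% of all genes tested did so, and for 5 each lay above, where 14.3% did. Among the lower members, kcnip3 had 86.2 and 183 with noggin and RA and 8.06 and 38.3 with VP16 (log2 difference -2.75 ± 0.65, adjusted p = 0.369). For kcnab3 the values were 308 and 489 (noggin and RA) and 33.4 and 125 (VP16, log2 difference -2.57 ± 0.59, adjusted p = 0.358). Both genes passed in DESeq2 (adjusted p = 0.0136 and 0.0152), which called 2 members and 0.982% of all genes, while edgeR called 0 members. With the replicate block 1 member fell, kcnn1, from 221 and 541 to 56.4 and 135 (adjusted p = 0.04), where 0.34% of all genes were called, 0.232% lower. Levels of kcnk12 were 4.88 and 3.35 with noggin and RA and 6.91 and 1.96 with VP16, which overlap (adjusted p = 1). Those of kcng2 were 8.94 and 9.2 (noggin and RA) and 3.45 and 7.85 (VP16, adjusted p = 0.925). The gene kcnn4 went the other way, at 195 and 66.9 with noggin and RA and 488 and 212 with VP16, without passing (adjusted p = 0.88).

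VP16 replicate 1 was the lowest of the 8 neuralized libraries for 34 of the 61 tested members. The share of all genes that were lowest in VP16 replicate 1 was not counted, so this count does not set the members apart. Levels of kcnb2 were 26.5 and 238, those of kcnma1 97.9 and 533 and those of kcnd3 117 and 707. The VP16 libraries read 183 and 343 for kcnh7, 124 and 178 for kcnj3 and 87.5 and 245 for KCNK3, with replicate 1 lower in each. The neuronal markers summed to 23664 and 72427 in the VP16 libraries and 82637 and 119829 with noggin and RA, again lower in replicate 1, and none of them passed. Of these markers ebf2 had a higher mean with VP16. The neural progenitor markers summed to 23893 and 23816 (VP16) and 18253 and 18020.5 (noggin and RA). Without VP16 replicate 2 the test against noggin and RA called 4 members, all lower, and kcnab3 was among them (adjusted p = 0.0199). The same fit called 1.52% of all genes, 1.4% lower. The part of these markers in the channel levels was not tested.

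Set directly against prdm12, the VP16 fusion had 11 members lower and none higher, where 3.86% of all genes tested were called, 0.758% higher and 3.11% lower. They were kcnip3, kcnk12, kcng2, kcnn1, kcnab3, kcnn2, kcnj16, kcnq3, kcnc1, kcnd1 and kcnh7. The largest difference was that of kcnip3, with 771 and 821 with prdm12 and 8.06 and 38.3 with VP16 (log2 fold change -5.40 ± 0.65, adjusted p = 0.00633). For kcnk12 the log2 fold change was -5.23 ± 0.59 (adjusted p = 0.00491) and for kcng2 -4.87 ± 0.48 (adjusted p = 0.00325). Levels of kcnn1 fell from 1138 and 2271 to 56.4 and 135 (log2 fold change -4.18 ± 0.58, adjusted p = 0.0109). Those of kcnn2 fell from 459 and 675 to 58.7 and 55.96, a log2 fold change of -3.26 ± 0.30 (adjusted p = 0.00305). The Kv beta gene kcnab3 fell from 804 and 808 to 33.4 and 125, and kcnj16 from 137 and 152 to 19.6 and 12.8. The M-current gene kcnq3, the fast-spiking gene kcnc1, the A-type gene kcnd1 and kcnh7 had log2 fold changes between -2.48 and -1.76 with adjusted p between 0.0378 and 0.0434. Each of these 4 held its call in 1 of the 10 fits that left out 1 library, with adjusted p up to 0.214. The call was also lost in edgeR for kcnq3 and kcnc1 (adjusted p = 0.0525 and 0.0644), and without the filter on low values for kcnq3, kcnc1 and kcnd1 (adjusted p = 0.055, 0.0568 and 0.0573). None of the 11 overlapped between the groups. How many of all genes did not overlap is not given here, so this does not set them apart.

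In the opposite direction kcnn4 had 62.8 and 21.5 with prdm12 and 488 and 212 with VP16 (log2 difference 3.09 ± 0.87, adjusted p = 0.0978, 0.0433 with the replicate block and 0.00371 in DESeq2). DESeq2 called 17 members lower and 1 higher, where it called 10.1% of all genes. With the block 28 members fell and 3 rose, kcnn4, KCNQ5 and kcnrg, against 16.4% of all genes called, 11.6% lower and 4.83% higher. The genes kcnma1, kcnj3 and KCNK3 were among the 28, with blocked adjusted p of 0.0294, 0.0298 and 0.0444, against 0.218, 0.301 and 0.517 without it. Levels of kcnd3 passed neither test (adjusted p = 0.605, and 0.247 with the block). In the fits that left out 1 library kcng2 and kcnn2 kept their calls each time. The count was 3 without prdm12 replicate 1, 4 without prdm12 replicate 2, 5 without VP16 replicate 1 and 19 without VP16 replicate 2. It was 6 without either engR library and 7 without either wild-type or noggin library. How many of all genes were called in these fits was not counted, so these counts do not set the members apart. Of the 12 neuronal markers 3 also fell in this comparison and none rose, while 3 of 7 neural progenitor and 3 of 7 multiciliated cell markers rose. Their part in the result was not tested.

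Between engR and prdm12 no member passed, nor did any of the 12937 genes (0%, limma), and edgeR called no member, while 6 members and 679 genes had an unadjusted p under 0.05. Levels of kcng2 were 193 and 173 with prdm12 and 457 and 405 with engR (log2 difference 1.23 ± 0.48, adjusted p = 0.816). For kcnk12 the log2 difference was -0.66 ± 0.59 (adjusted p = 1), with 95% interval from -2.00 to 0.69. For kcnn4 it was -1.29 ± 0.87, with 62.8 and 21.5 (prdm12) and 15.6 and 13.4 (engR) in the libraries. DESeq2 called 4 members, all higher with engR, where it called 1.41% of all genes. They were kcng2, kcnk6, kcnj16 and kcnip1 (adjusted p = 0.0328, 0.00126, 0.0114 and 0.00255). The A-type auxiliary gene kcnip1 had 7.39 and 27.3 with prdm12 and 149 and 234 with engR (limma adjusted p = 0.43), next to 108 and 69.4 with noggin and RA. The members kcnd3, kcnh7, kcnj3, kcnma1 and kcnab3, which had many reads, also missed the test (adjusted p = 1 for each). The KCNK3 libraries read 181 and 589 (prdm12) and 149 and 276 (engR, adjusted p = 1).

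The opposed fusions differed in the most members among the construct comparisons. Of 61 tested members, 22 were higher and 3 lower with engR than with VP16, where 12.1% of all genes tested were called, 8.7% higher and 3.42% lower. All 16 tested Kv pore genes had a log2 difference above 0, and 7 of them passed. Levels of kcng2 were 457 and 405 with engR and 3.45 and 7.85 with VP16 (log2 fold change 6.10 ± 0.48, adjusted p = 0.000701). Those of kcnip3 were 1026 and 1537 (engR) and 8.06 and 38.3 (VP16, log2 fold change 6.06 ± 0.65, adjusted p = 0.00223). In the Kv family KCNC2 had 78.2 and 112 with engR and 0 and 6.87 with VP16, and kcna2 had 382 and 510.04 (engR) and 11.5 and 62.8 (VP16). In each of these 4 genes both engR libraries stood above both VP16 libraries, but the share of all genes that did so is not given here.

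Among the other called members, kcnj16 had 518 and 340.03 with engR and 19.6 and 12.8 with VP16 (log2 fold change 4.64 ± 0.39, adjusted p = 0.000849). The leak channel genes kcnk12 and kcnk1 differed by 4.58 ± 0.59 and 3.90 ± 0.82 on the log2 scale. Of the 6 tested auxiliary genes, kcnab1, kcnab3, kcnip1 and kcnip3 were higher with engR, by between 3.62 and 6.06 on the log2 scale. The genes kcnn1 and kcnh7 were higher by 3.92 ± 0.58 and 2.14 ± 0.36. Others that were higher with engR were kcnc1, kcnd1, kcnj13, the KCNJ9 line ENSXETG00000032519, kcnk6 and kcnn2, with log2 fold changes between 1.34 and 3.27. The span of kcnj13 overlaps that of GIGYF2 in the table, the libraries were not stranded, and ambiguous reads were counted apart. Whether reads of GIGYF2 entered the kcnj13 line was not tested. Lower with engR were kcnn4 (15.6 and 13.4 against 488 and 212, log2 fold change -4.38 ± 0.87, adjusted p = 0.0165), kcnj10 and kcnrg. The glial and renal inward rectifier kcnj10 had 9.39 and 1.03 against 48.4 and 41.2 (adjusted p = 0.042), and edgeR did not call it (adjusted p = 0.0674). With kcnj13, it held its call in 3 of the 10 fits that left out 1 library. The regulator kcnrg had 2.09 and 1.03 against 17.3 and 13.7, 3 reads against 29, a ratio of 0.101 (95% counting interval 0.0197 to 0.326).

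With the replicate block 33 members were higher and 5 lower, where 29.1% of all genes were called, 18.6% higher and 10.6% lower. The genes kcnma1 and kcnj3 then passed (adjusted p = 0.0093 and 0.028, against 0.0916 and 0.262 without it). Levels of kcnd3 and KCNK3 passed neither test (adjusted p = 0.337 and 0.761). In DESeq2 26 members were higher and 3 lower, where 18.7% of all genes were called, and kcnma1 was among them (adjusted p = 0.0394). With a pseudocount of 0.25 the calls of kcna2 and kcnj10 were lost (adjusted p = 0.061 and 0.0555), and with quantile normalization that of kcnk1 (adjusted p = 0.0533). Without engR replicate 1, whose labels disagree, all 25 members called with it kept their direction and 10 passed, without engR replicate 2 it was 6, and without VP16 replicate 1 it was 14. In the 10 fits that left out 1 library kcng2, kcnip3, kcnj16, kcnk12, kcnab3 and kcnn2 kept their calls each time. The share of all genes called in these fits was not counted, so their counts do not set the members apart. Summed neuronal markers were 166839 and 175318 with engR and 23664 and 72427 with VP16, and 5 of 12 rose. Much of the sum was tubb2b, with means of 95425 (engR) and 24744 (VP16). Means of neurod4, ebf2, elavl3 and myt1 were lower with engR without passing, for neurod4 616 (engR) and 1409 (VP16). Neural progenitor markers summed to 9059 and 7146 (engR) and 23893 and 23816 (VP16), and 5 of 7 tested fell, as did 5 of 7 multiciliated cell markers. Of the 12 epidermal lines 5 rose, and 3 of 7 goblet cell and ionocyte markers. Their part in the channel levels was not tested. The same VP16 libraries enter this comparison and that with prdm12, so the calls of both are not independent.

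**Figure D4:**
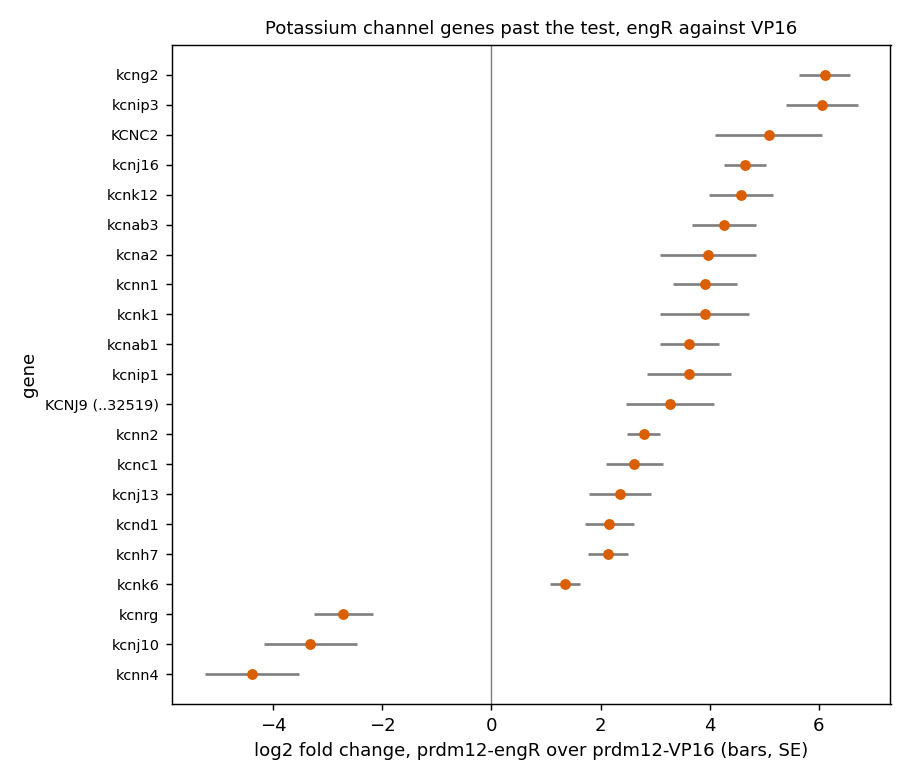
Log2 fold change of prdm12-engR over prdm12-VP16 for 21 of the 25 potassium channel genes that passed limma at an adjusted p under 0.05, with SE as bars. The 18 members shown above 0 run from kcnk6 to kcng2, and kcnrg, kcnj10 and kcnn4 lie below 0.

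In 29 of 61 tested members (47.5%) replicate 2 was above replicate 1 in all 4 neuralized groups, as it was in 31.8% of all genes tested. In 6 members (9.84%) it was below in all 4, against 26.5% of all genes tested. The A-type gene kcnd3 was higher in replicate 2 by between 1.46 and 2.58 on the log2 scale, and KCNQ5 by between 1.44 and 2.51. The members lower in replicate 2 in all 4 groups were kcnc4, kcnk1, kcnn4, KCNH5, kcnj15 and kcnk12. Levels of kcnc4, another gene of fast-spiking neurons, were 149 and 46.9 with noggin and RA, 216 and 26.4 with prdm12, 125 and 29.9 with engR and 19.6 and 18.6 with VP16. What a replicate number stands for is not in the labels.

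**Figure D5:**
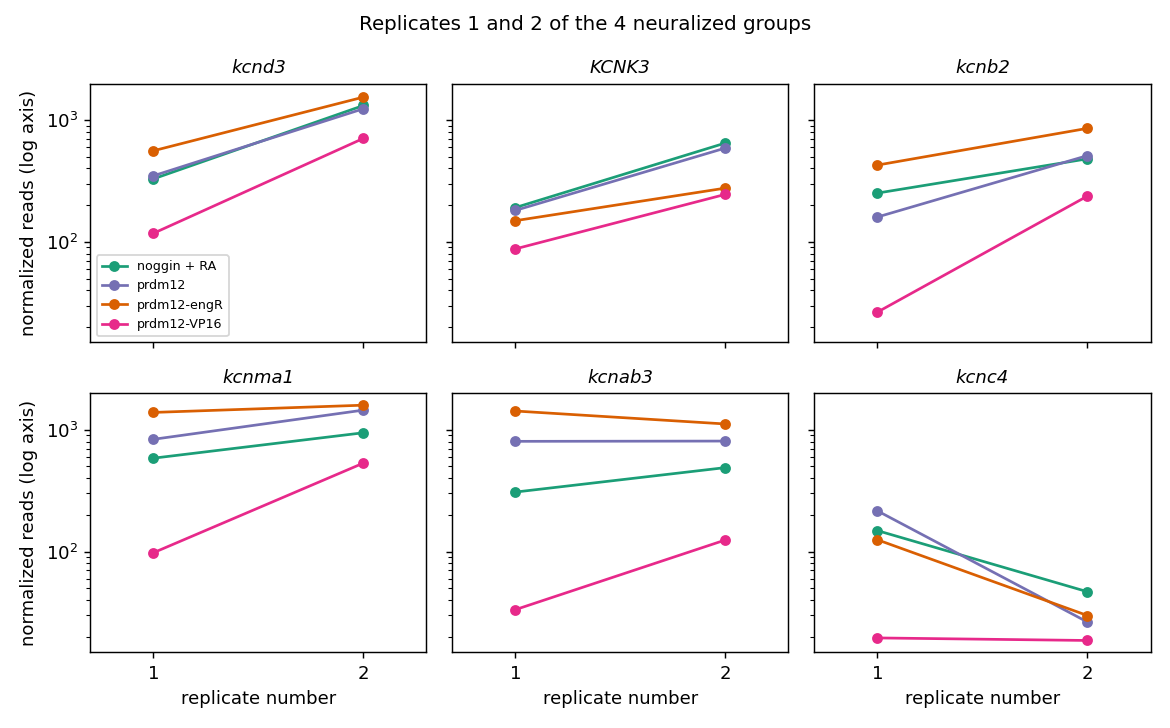
Normalized read counts of 6 potassium channel genes in replicates 1 and 2 of the 4 neuralized groups on a log axis, with 1 line per group. Replicate 2 lies above replicate 1 in each group for kcnd3, KCNK3, kcnb2 and kcnma1 and below it for kcnc4, and kcnab3 has both.

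Some members lie close together in the deposited table. The Kv genes kcna5, kcna1 and kcna6 follow each other on scaffold GL172660.1 with no gene between them, as do kcna3, kcna2 and kcna10 on scaffold GL173009.1. With noggin and RA kcna5 and kcna6 rose and kcna1 did not pass, at 4.07 and 29.3 against 1.32 and 15.3. The kcna5 libraries read 0 and 26.3 (wild type) and 45.5 and 130.5 (noggin and RA). As given above, the call of kcna5 did not hold in each fit that left out 1 library. In the other cluster kcna2 rose, kcna3 did not pass, and kcna10 had between 0 and 7.21 normalized reads over the 10 libraries. The kcnj genes KCNJ6 and kcnj15, neighbours on scaffold GL173710.1, went opposite ways: KCNJ6 had no wild-type read and 3.25 and 30.1 normalized reads with noggin and RA, while kcnj15 fell.

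The 27 members below the filter had means of at most 9.17 normalized reads. They comprised 7 of 9 silent Kv genes, 7 of 13 auxiliary genes, 5 of 14 K2P genes, 3 of 14 inward rectifiers, 3 of 7 KCNH genes and 2 of 18 Kv pore genes. KCNE2 had no read in any library, and a count of 0 allows up to between 2.44 and 3.97 normalized reads in a library. The highest means among the 27, not divided by gene length, were those of kcnk15, kcnip2 and KCNK13. The leak channel gene kcnk15 was uneven, with 3.13 and 37.1 in the engR libraries and 4.88 and 25.9 with noggin and RA. KCNK13, a close relative of kcnk12, had 38.4 and 4.38 in wild-type caps, 0.81 and 0 with noggin and RA and 9.24 and 9.09 with prdm12. Differences of members at this level were not tested.

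Genes that work with potassium channels but are named otherwise were taken from 2 lists. Of 12 tested partners, which anchor channels or change their gating, 10 rose with noggin and RA and none fell, with a median log2 fold change of 4.21 against 0.02 over all genes. The A-type auxiliary gene dpp6 rose from 3.94 ± 3.71 to 415 ± 146, and amigo1, a partner of delayed rectifiers, from 5.5 ± 1.58 to 695 ± 359. Of 19 tested genes of potassium transport and related cation channels, 9 rose and 4 fell. Of all genes tested, 22.3% rose with noggin and RA and 21.4% fell. The neuronal chloride and potassium exporter SLC12A5 rose from 22.8 ± 7.95 to 1333 ± 366. The sodium pump beta gene atp1b2 fell from 16403 ± 7208 to 140.1 ± 10.01, and atp1b3 rose from 428 ± 287 to 8774 ± 2273. None of the 31 passed against noggin and RA with prdm12, engR or VP16, where 0.162%, 3.43% and 0% of all genes tested were called. Between VP16 and prdm12, 1 partner and 2 transport genes fell, where 3.11% of all genes tested did. With engR against VP16, 8.7% of all genes tested were higher and 3.42% lower. In that comparison 5 partners and 6 transport genes were higher and none was lower. The A-type auxiliary gene dpp10 was among them, with 1439 ± 236 with engR, 283 ± 111 with VP16 and 509.7 ± 72.5 with noggin and RA.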

How the data were processed

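RNA from Xenopus laevis animal caps was sequenced in 10 libraries, 5 groups of 2, prepared with a non-stranded poly-A kit per the labels' protocols. The authors' deposited table gives 1 line per Ensembl gene, with normalized read signal in each library and the gene's span. Its aligner, counter, annotation and build are not given in the sources used here. Per the submitters' processing notes, Bowtie, Bowtie2, edgeR and HOMER were used, with no roles or versions named. Lines that name no gene were left out of totals and tests. They held reads with no unique alignment (23.8% to 44.04% of all values, by library), reads outside genes and ambiguous reads. The deposited signal was a whole multiple of 1 step per library for 100% of values (tolerance 0.05 of a step), so read counts were recovered by dividing the deposited signal by that step. A count of 0 allows up to 3 reads. Counting intervals and floors cover counting error only.

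All 10 libraries entered 1 limma fit (limma 3.58.1, R 4.3.3) of log2(value + 1) with an intensity trend and group as the only term (residual df 5, prior df 3.17). It covered the 12937 genes whose mean reached 10. It was two-sided with Benjamini-Hochberg adjustment over these genes, threshold 0.05. Fold changes on this scale understate the change of low genes, and errors of log2 fold changes are standard errors. Alternatives were pseudocounts of 0.25 and 4, no filter on low values, a minimum mean of 50, quantile normalization, median ratio scaling, a replicate block, edgeR 4.0.16 (quasi-likelihood, TMM) and DESeq2 1.42.0 on the recovered reads, and leaving out each library. Over all genes edgeR called 5523 for noggin with RA against wild type, 23, 433 and 0 for prdm12, engR and VP16 against noggin with RA, 358 for VP16 against prdm12, 0 for engR against prdm12 and 1286 for engR against VP16. The differences of replicate 2 from replicate 1 correlated across genes in all 10 pairs of groups (r from 0.22 to 0.79), so the numbers were taken from the data to pair libraries, although the labels do not say what they mark. Scripts were tested on simulated data. Named in each comparison were up to 12 called members a direction with the largest fold change, and kcnk12, kcng2 and kcnn4. The member of each family with the highest mean, not divided by gene length, was named as well. The members and lists were chosen with earlier results of these data known. Cell markers and partner genes were lists of symbols. The 4 ChIP libraries were not used here. Some members are not reported here by name or shown in labelled figures, and the counts include them.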

Additional observations from a re-analysis of the deposited data

How the results depend on the processing

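Each count is of the 61 tested members. With the replicate number as a block, taken to pair libraries, 5 members passed for prdm12 against noggin with RA (2 without the block), 14 for engR (8) and 1 for VP16 (0). With the block 31 passed for VP16 against prdm12 (11) and 38 for engR against VP16 (25). For noggin with RA against wild type it was 50 (47), and for engR against prdm12 0 in both. The share of all genes called with the block is not given here for either of these comparisons. The change from 47 to 50 therefore does not set the members apart. DESeq2 called 48 for noggin with RA against wild type, 8, 14 and 2 for prdm12, engR and VP16 against noggin with RA, 18 for VP16 against prdm12, 4 for engR against prdm12 and 29 for engR against VP16. The cause of these differences was not tested. Leaving out 1 library gave from 38 to 47 calls for noggin with RA against wild type, from 0 to 2 for prdm12, from 0 to 7 for engR and from 0 to 4 for VP16, each against noggin with RA. It gave from 3 to 19 for VP16 against prdm12, 0 throughout for engR against prdm12 and from 6 to 28 for engR against VP16. A group with 1 library left is assumed to vary like the others. The share of all genes called was counted only for VP16 against noggin with RA without VP16 replicate 2. For the other fits that left out a library, whether lost or gained calls were particular to the members was not tested. The counts under the other settings were within 1.5 times the count given. Over pairs of a named gene's fold change and a setting, none reversed. A call was lost in 19 and gained in 18 such pairs under other settings, and lost in 143 and gained in 3 with a library left out. Under quantile normalization the median log2 fold change of all genes was -0.13 for engR against noggin with RA, 0.14 for VP16 against prdm12 and -0.20 for engR against VP16, against 0.03, -0.01 and 0.02 without it. With 2 libraries a group and members at few reads in wild-type caps, small differences were not detectable.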
